A study of Mus musculus with 4 samples.

Results

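Replication-dependent histone genes make the bulk of the histones that package newly copied DNA. All protein-coding genes whose GENCODE M21 symbol starts with Hist1h, Hist2h, Hist3h or Hist4h were taken, 67 of the 31053 genes in the count tables. They comprised 6 genes for the linker histone H1, 18 for H2A, 18 for H2B, 12 for H3 and 13 for H4. The clusters hold 54 of them on chromosome 13 (Hist1), 10 on chromosome 3 (Hist2), 2 on chromosome 11 (Hist3) and 1 on chromosome 6 (Hist4).

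The samples were cultures of wild-type primary cortical neurons, prepared from cortices of C57BL/6J mouse embryos. Enhanced crosslinking and immunoprecipitation (eCLIP) fixes RNA to protein, trims it with RNase I and recovers it with an antibody, here against RPS2 of the small ribosomal subunit. There were 2 RPS2 IP libraries and 2 total RNA libraries, and the latter were taken from the same samples before the IP. The labels give rRNA depletion for the IP and no treatment for total RNA, so if they hold, that step and the IP cannot be told apart. No agent is listed for either group. Floxuridine, which limits dividing cells, is named in the methods for primary neuron cultures, though not for the eCLIP cultures in particular.

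Messenger RNAs of this family are mostly intronless and end, in dividing cells, in a conserved stem-loop in place of a poly(A) tail. The stem-loop binding protein SLBP holds the stem-loop and takes part in processing, export and translation of the mRNA, and these mRNAs rise during S phase and are degraded when DNA synthesis stops. Some of the genes can also give longer polyadenylated transcripts, and replacement histones such as H3.3 and H2A.Z are made outside S phase from ordinary polyadenylated mRNAs.

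The stem-loop was searched for in the GENCODE M21 transcripts, on the sense strand, in the first 150 bases after the stop codon. The pattern was a 6-base arm of the form GGNNCT, a 4-base loop starting with TT, and the reverse complement of the arm. It was present in 44 of the 51 members with at least 40 annotated bases after the stop codon (86.3%), against 46 of 20764 protein-coding genes in all (0.222%). The annotation of 13 members ends at the stop codon itself, so for those the search had nothing to read. The commonest form was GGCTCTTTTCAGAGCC, in 26 members, none of them H4 genes, while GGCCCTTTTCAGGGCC occurred in 7 members, all of them H4 genes. The lines below, with the stem-loop in capitals and 5 bases on either side in lower case, show this element in members whose counts are described later.
Hist1h1e: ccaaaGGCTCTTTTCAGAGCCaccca
Hist1h1c: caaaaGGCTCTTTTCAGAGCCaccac
Hist1h1d: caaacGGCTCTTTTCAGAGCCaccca
Hist3h2ba: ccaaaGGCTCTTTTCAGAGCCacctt
Hist1h3e: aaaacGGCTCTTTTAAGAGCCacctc
Hist1h4d: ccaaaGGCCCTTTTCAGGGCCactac
Hist1h4f: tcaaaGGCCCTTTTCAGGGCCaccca
Hist1h4b: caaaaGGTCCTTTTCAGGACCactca
Hist4h4: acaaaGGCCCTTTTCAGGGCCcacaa
H1, H2B and H3 members shared an arm that differs from the H4 arms inside the stem. Both sides of each stem pair because the search pattern required it, so the pairing is not a result. The H4 member Hist1h4b had a GGTCCT arm.

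Near-identical copies matter for these counts, because a read that aligned to several places was not counted. The 13 H4 coding sequences are 312 bases long, and their 78 pairs differed by 0 to 46 bases, with a median of 19. The first 60 coding bases of 5 of them show the range, with capitals marking bases that differ from the commonest base of the 13 at that position.
Hist1h4m: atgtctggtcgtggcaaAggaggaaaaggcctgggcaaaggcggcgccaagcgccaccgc
Hist1h4n: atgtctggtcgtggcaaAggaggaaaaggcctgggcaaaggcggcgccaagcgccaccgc
Hist1h4f: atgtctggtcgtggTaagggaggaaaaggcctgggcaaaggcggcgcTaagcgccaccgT
Hist1h4d: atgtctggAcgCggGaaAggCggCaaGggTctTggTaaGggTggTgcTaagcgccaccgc
Hist4h4: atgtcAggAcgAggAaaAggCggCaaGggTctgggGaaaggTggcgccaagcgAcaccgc
Hist1h4m and Hist1h4n have the same coding sequence, and Hist1h4d differs from the commonest bases at 14 of the 60 positions. A read from the coding part of Hist1h4m can therefore not be placed, whereas most reads from Hist1h4d can.

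For every member, the share of its 50-base stretches that occur at no other annotated locus was computed. Read length is not given in the sources used here, so the 50 bases are a yardstick and not the length of these reads. The share ran from 0% for Hist2h2aa2 to 100% for 5 members with a median of 53%. It was highest for H1 (median 98.8%, lowest 91.5%) and lowest for H2A (median 27%), with H4 at 60.5%, H2B at 56% and H3 at 42.8%. Counts of members with little unshared sequence leave out an unknown number of reads, and their levels are uncertain. Hist2h2aa2 still had 10 and 6 counts in the IP against 1 and 5 in total RNA, and where those reads came from was not tested.

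Libraries held 16460545 and 9941486 counts for the IP replicates 1 and 2, and 5281196 and 4899718 for total RNA. Because the single gene Gm42418 took a large part of every library, shares are given of the counts without it. Neuronal markers were high in every library, from 1363 counts for Snap25 in total RNA replicate 1 to 15091 for Map2 in IP replicate 1. All 5 astrocyte markers were detected as well, and their summed level was 1621 and 1367 CPM (counts scaled by TMM to a common library size) with the IP and total RNA of replicate 1, against 452 and 424 CPM in replicate 2. The summed level of 25 genes of S phase and mitosis was 82.3 and 80.6 CPM in replicate 1 and 105 and 109 CPM in replicate 2. Of these, Ccne1 went from 16.8 and 16.5 CPM in IP and total RNA to 23 and 30.9 CPM. Pcna, Mcm2, Mcm4 and Mcm6 also rose in both kinds of library, as did Mcm5, Gmnn and Birc5 at lower counts. Mcm7, Top2a, Cdk2, Mki67, Cdk1, Tyms, Cdc6 and Aurkb were lower in replicate 2 in both kinds of library, though all but Mcm7 had few counts. The genes of this list were thus split, and its higher sum does not hold gene by gene. The cultures behind the replicate numbers thus differed in both summed levels. Summed levels of other cell-type markers were also lower in replicate 2. The 4 microglial markers summed to 22.8 and 24.5 CPM in IP and total RNA of replicate 1 and to 3.95 and 2.96 CPM in replicate 2, and the 3 endothelial and mural markers to 22.8 and 21.2 CPM and then 5.3 and 6.25 CPM. The 2 fibroblast markers summed to 8.96 and 12.9 CPM in replicate 1 and 2.07 and 4.93 CPM in replicate 2. Of these, Dcn was higher in total RNA of replicate 2 (1.97 against 0.445 CPM) but not in the IP. The 5 oligodendrocyte lineage markers summed to 85.4 and 80.4 CPM and then 68.7 and 65.6 CPM. Cspg4 fell from 20.8 and 24.5 CPM to 4.94 and 5.75 CPM, and Olig1, Olig2 and Pdgfra were lower too. Mbp went the other way, from 35.6 and 32.7 CPM to 44.3 and 41.1 CPM.

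The first question was how many of these S phase genes are seen at all in total RNA of cultures that hold mostly postmitotic cells. At least 1 count in both total RNA libraries was found for 47 of the 67 members (70.1%), and the same held for 61.0% of the 21974 protein-coding genes. The share of members was thus near that of protein-coding genes in general. In either library, 58 members had a count, and 9 had none. 10 or more counts in all 4 libraries were reached by 30 members (44.8%), against 49.1% of protein-coding genes.

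Detection differed between classes. All 13 H4 genes were detected in both total RNA libraries, and 11 of them had 10 or more counts in all 4 libraries. Of the 6 H1 genes 5 were detected, of the 18 H2B genes 12, of the 12 H3 genes 7, and of the 18 H2A genes 10. Only 3 H2A genes and 5 H2B genes reached 10 counts in all 4 libraries. Of the 37 members with more than 50% unshared stretches, 29 were detected and 22 reached 10 counts everywhere, whereas of the 30 other members 18 were detected and 8 reached 10 counts. H2A, the class with the least unshared sequence, was also that with the lowest share detected, and how much of its low counts comes from uncounted reads was not tested.

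**Figure D1:**
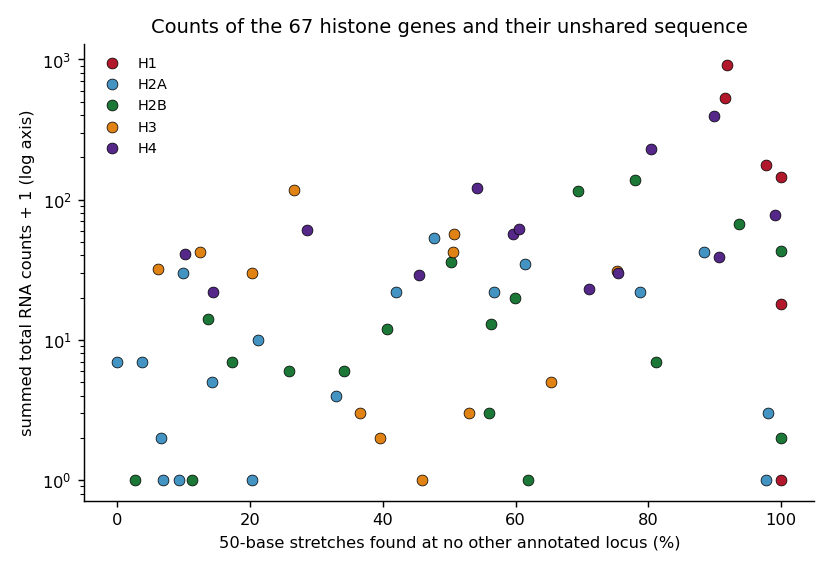
Each point is 1 of the 67 members, coloured by class, with the share of its 50-base stretches found at no other annotated locus in percent on the x axis and its summed total RNA counts plus 1 on a log y axis. The most counted members sit at the right, and several members with a share of 90% or more are nonetheless at or near 0.

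The 9 members without a count in total RNA were Hist1h1t, Hist1h2aa, Hist1h2af, Hist1h2ah, Hist1h2ap, Hist1h2ba, Hist1h2bq, Hist1h2br and Hist1h3g. A count of 0 in a library allows up to 3 counts. Hist1h1t, Hist1h2aa and Hist1h2ba are known as testis-specific histone genes. Hist1h1t had 100% and Hist1h2aa 97.7% of stretches unshared, so nearly all of the sequence of those 2 genes could have taken reads. By contrast, Hist1h2ap had 6.9% and Hist1h2bq 2.7%. Hist1h2aa, Hist1h2ah, Hist1h2ap and Hist1h2bq had no count in any of the 4 libraries.

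Low counts also stood beside unshared sequence elsewhere. Hist2h2be, an H2B gene with a 2620-base annotated transcript and 100% unshared stretches, had 7 and 0 counts in the IP against 1 and 0 in total RNA. Hist3h2a had 9 and 7 counts in the IP against 0 and 2 in total RNA, though 708 of its 2146 bases overlap Trim17 on the same strand and reads there were not counted. Hist1h1b, the H1 gene for H1.5, had 9 and 9 counts in the IP against 6 and 11 in total RNA with 100% of its stretches unshared. These 3 genes were singled out after their values were seen.

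All members together held 0.0501% of IP replicate 1 (95% Wilson interval 0.0487 to 0.0516) and 0.0595% of IP replicate 2 (0.0577 to 0.0613). In total RNA the shares were 0.0534% (0.0509 to 0.056) and 0.0564% (0.0541 to 0.0587). The intervals cover counting error only. IP and total RNA shares overlapped between the groups, with total RNA inside the range of the IP. The 4 replacement genes H2afz, H2afx, H3f3a and H3f3b together held 0.0202% and 0.0209% of the IP and 0.0172% and 0.02% of total RNA, and the intervals of the IP overlapped that of total RNA replicate 2 (0.0187 to 0.0214).

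By class, H1 held 0.0233% and 0.0251% of total RNA, although it has only 6 genes. H4 held 0.0158% and 0.0163%. H2B (0.00623% and 0.00663%), H3 (0.00506% and 0.00465%) and H2A (0.00299% and 0.00373%) were each lower than H1 and H4. In the IP, H1 held 0.017% and 0.0204% and H4 0.018% and 0.0215%. H1 was thus ahead of H4 in share in both total RNA libraries. In both IP libraries the intervals of H1 and H4 overlapped (0.0162 to 0.0178 against 0.0172 to 0.0189 in replicate 1). These shares are of counts without regard to length or uncounted reads. H1 genes are longer (median 1236 exonic bases against 539 for H4) and have more unshared sequence, so the shares do not rank the mRNA levels of the classes.

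**Figure D2:**
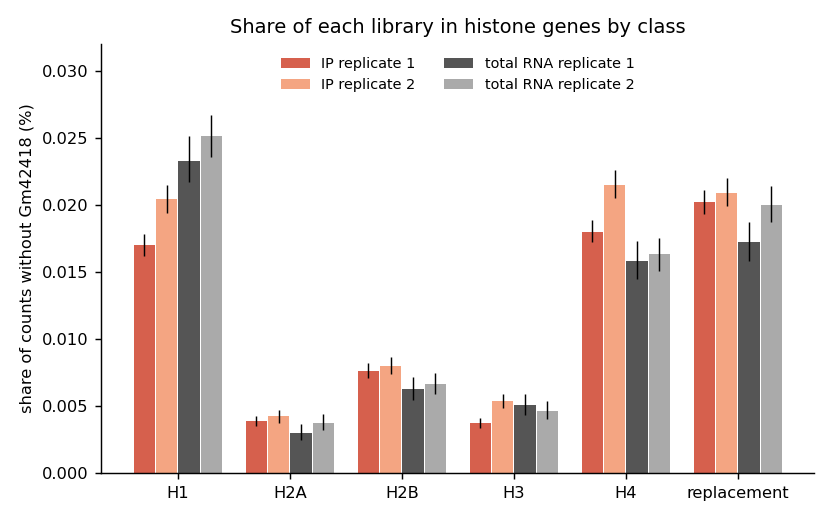
Bars give the percentage of each library's counts, without Gm42418, in the members of each histone class and in the 4 replacement genes, with 95% Wilson intervals (counting error only). H1 is lower in both IP libraries than in both total RNA libraries, while H4, H2B, H2A and the replacement genes are higher in both IP libraries. For each of the sets that are higher, some IP and total RNA intervals overlap.

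Levels of different genes were compared per length, as total RNA CPM per kilobase of exon. Hist1h1e led with 44.5 and 45.1 in replicates 1 and 2. Hist1h4d (35 and 31.5) and Hist1h1c (35.1 and 30) followed, and these 2 did not differ beyond their spread. Hist1h4c had 18.2 and 32.5, a spread that covers Hist1h4h at 25.1 and 23.4 and Hist3h2ba at 23.9 and 18.7. Below them the order is not settled, since Hist1h4k (16.4 and 19.5), Hist1h1a (10.2 and 24.4) and Hist1h4f (22.2 and 9.25) reach into the same range. With 28.5% unshared stretches the level of Hist1h4k is uncertain. Among the replacement genes H2afx had 25.6 and 27.6, H3f3b 17.7 and 19.9, H2afz 11.5 and 14.9 and H3f3a 3.88 and 3.57. At the bottom of the 30 members, Hist4h4 had 1.17 and 1.32 and Hist1h2be 1.5 and 1.33, on annotated lengths of 2863 and 4446 bases. Annotated length sets these values, and where the transcript made is shorter than the annotated one, the level per kilobase is too low.

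The second question was whether the members were recovered with RPS2 above or below their level in total RNA. For the 30 members with 10 or more counts in all 4 libraries, the log2 ratio of IP to total RNA was taken within each replicate number, and its mean over the pairs had a median of 0.089, against -0.00099 for all 10885 genes with as many counts. Taken by itself pair 1 gave a median of -0.017 and pair 2 gave 0.19, so the sign rests on the pair. It was also at -0.011 after an offset for GC content and length, and so the members as a whole are not placed on either side of total RNA. Of the 30, 12 were higher in the IP in both pairs, 8 were lower in both and 10 had opposite signs, while 33.4% of the 10885 genes were higher and 34.2% lower in both. Both IP libraries lay above both total RNA libraries for 8 members and below for 5, against 16.4% and 16.1% of those genes.

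The spread among the members was wide. Ratios ran from -1.70 to 1.22 in pair 1 and from -0.94 to 1.23 in pair 2.

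**Figure D3:**
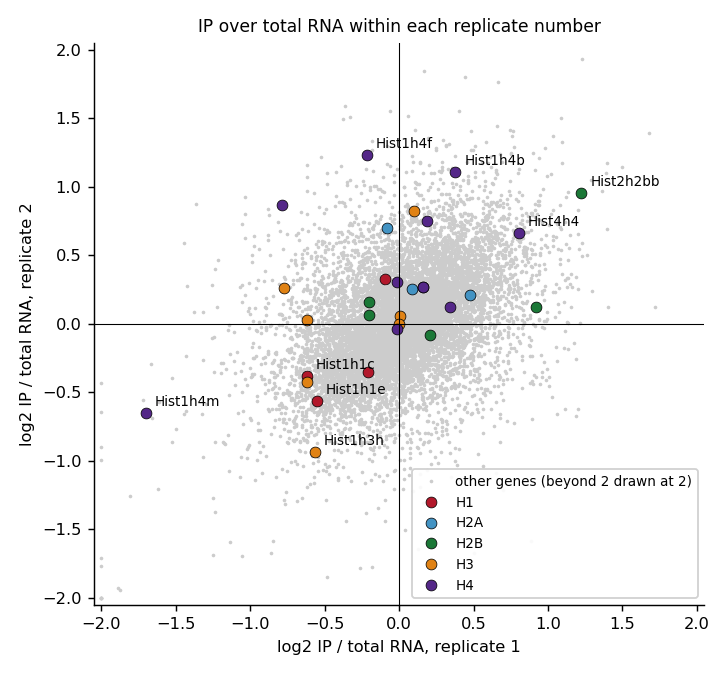
Each coloured point is 1 of the 30 members with 10 or more counts in all 4 libraries, at its log2 ratio of IP to total RNA in replicate 1 (x axis) and replicate 2 (y axis), over the other genes in grey. Hist1h1e and Hist1h1c lie in the lower left quadrant and Hist2h2bb in the upper right, with most members near the origin.

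Without the pairing, the edgeR quasi-likelihood test passed 0 members in either direction at the 0.05 threshold for adjusted p-values, as it did over all 12336 genes tested (0%). Of the 39 members tested, 2 had an unadjusted p under 0.05, and DESeq2 called 0 members, with 1 at an unadjusted p under 0.05. With the replicate number as a block, so that each IP library is set against its own total RNA, 1 member was called higher (Hist2h2bb) and 2 lower (Hist1h1e and Hist1h1c), against 6.63% and 7.55% of all genes tested. The members' counts were no higher than that background. The block leaves 1 residual degree of freedom, so its p-values lean on a dispersion shared by all genes. No source says that the replicates came from separate animals, so p-values measure the spread between these libraries.

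Linker histone H1, which binds DNA between nucleosomes, had the lowest class median of the mean ratio (-0.39), followed by H3 (-0.25). In pair 1 alone H3 was lower, at -0.57 against -0.38 for H1. Hist1h1e, the gene for H1.4, lies at chr13:23620629-23622558 on the minus strand of mm10. It had 810 and 654 counts in the IP against 386 and 530 in total RNA, which is 58.5 and 58.7 CPM against 86.0 and 87.1 CPM. Both IP libraries were below both total RNA libraries. The log2 fold change was -0.56 (SE 0.11, adjusted p = 2.92e-05 with the block and 1 without it, edgeR). A 496-base overlap with Hist1h2be on the same strand is left out of the counts of both genes.

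Hist1h1c, the gene for H1.2 at chr13:23738808-23740367, had 492 and 399 counts in the IP against 246 and 285 in total RNA. Its levels were 35.6 and 35.8 CPM in the IP and 54.8 and 46.8 CPM in total RNA, again without overlap. The log2 fold change was -0.50 (SE 0.13, adjusted p = 0.00136 with the block and 1 without it, edgeR). Hist1h1a had 90 and 157 counts in the IP against 34 and 110 in total RNA, with ratios of -0.21 and -0.35. Hist1h1d had 202 and 244 counts in the IP against 70 and 106 in total RNA, and its ratios of -0.093 and 0.33 had opposite signs. Among these 4 genes, 3 were thus lower in the IP in both pairs and 0 were higher in both.

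Summed over all 6 H1 genes, the log2 ratio was -0.51 in pair 1 (95% counting interval -0.64 to -0.39) and -0.38 in pair 2 (-0.50 to -0.27). Hist1h1e and Hist1h1c hold most of the counts in this sum in every library, so it mainly restates those 2 genes. The median ratio of the 4 H1 genes stayed negative under all 5 other scalings or corrections tried, from -0.32 with libraries scaled without Gm42418 to -0.53 after the GC and length offset. After that offset Hist1h1e had a log2 fold change of -0.73 (adjusted p = 1.69e-08, edgeR with the block) and Hist1h1c of -0.62 (adjusted p = 8.98e-05). Their annotated stem-loop is the commonest form, found in 26 members, and any part it has in these ratios was not tested.

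H4, a core histone of the nucleosome, had 11 genes with enough counts. Hist1h4d, the most counted of them, had 617 and 481 counts in the IP against 179 and 218 in total RNA. Its ratios were 0.16 and 0.27, and its log2 fold change of 0.22 (SE 0.13) was not called (adjusted p = 0.288, edgeR with the block). The direction turned to -0.14 after the GC and length offset. Hist1h4h had 183 and 148 counts in the IP against 53 and 67 in total RNA, also with ratios of 0.16 and 0.27. Hist1h4c had 262 and 323 counts in the IP against 67 and 162 in total RNA, with ratios of 0.34 and 0.12. After the offset its fold change also turned, from 0.22 to -0.12. All 3 were slightly above total RNA in both pairs with the main scaling, and none passed the test.

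Further H4 genes had fewer counts. Hist4h4 had 83 and 68 counts in the IP against 15 and 23 in total RNA, with ratios of 0.80 and 0.66, and its log2 fold change of 0.76 (SE 0.35) had an adjusted p of 0.136 (edgeR with the block). Hist1h4b had 61 and 54 counts in the IP against 15 and 13 in total RNA, with ratios of 0.38 and 1.10 and an adjusted p of 0.2. Hist2h4 had 158 and 100 counts in the IP against 45 and 32 in total RNA, with ratios of 0.18 and 0.75. These 3 genes were higher in the IP in both pairs.

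Hist1h4f had 103 and 98 counts in the IP against 39 and 22 in total RNA, with ratios of -0.22 and 1.23. Its total RNA level was 8.68 CPM in replicate 1 and 3.62 CPM in replicate 2, while the IP had 7.44 and 8.80 CPM. It was called higher (log2 fold change 0.86, adjusted p = 0.043, edgeR with the block) only after the GC and length offset, together with Hist1h3i and Hist2h2bb. That fit called 3 members higher and 2 lower, against 3.84% and 3.11% of all genes.

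Hist1h4m had 13 and 27 counts in the IP against 16 and 24 in total RNA, with ratios of -1.70 and -0.65 and so the lowest mean ratio of the 30. With 10.2% unshared stretches and the coding sequence of Hist1h4n, its value is uncertain. Its log2 fold change of -1.21 (SE 0.47) had an adjusted p of 0.0667 (edgeR with the block). It was called lower, at an adjusted p of 0.0158, where only genes with 10 or more counts in all 4 libraries were tested.

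Hist1h4a had 73 and 57 counts in the IP against 24 and 32 in total RNA. Hist1h4k had 70 and 84 counts in the IP against 23 and 37 in total RNA. Hist1h4j had 29 and 42 counts in the IP against 17 and 12 in total RNA, with ratios of -0.79 and 0.86. Across the 11 H4 genes, 6 were higher in both pairs and 2 lower in both, with a median ratio of 0.21. The H4 median stayed positive under the other scalings and corrections tried, from 0.13 to 0.28. Summed over all 13 genes, the ratio was 0.13 in pair 1 (counting interval -0.011 to 0.28) and 0.32 in pair 2 (0.19 to 0.45).

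**Figure D4:**
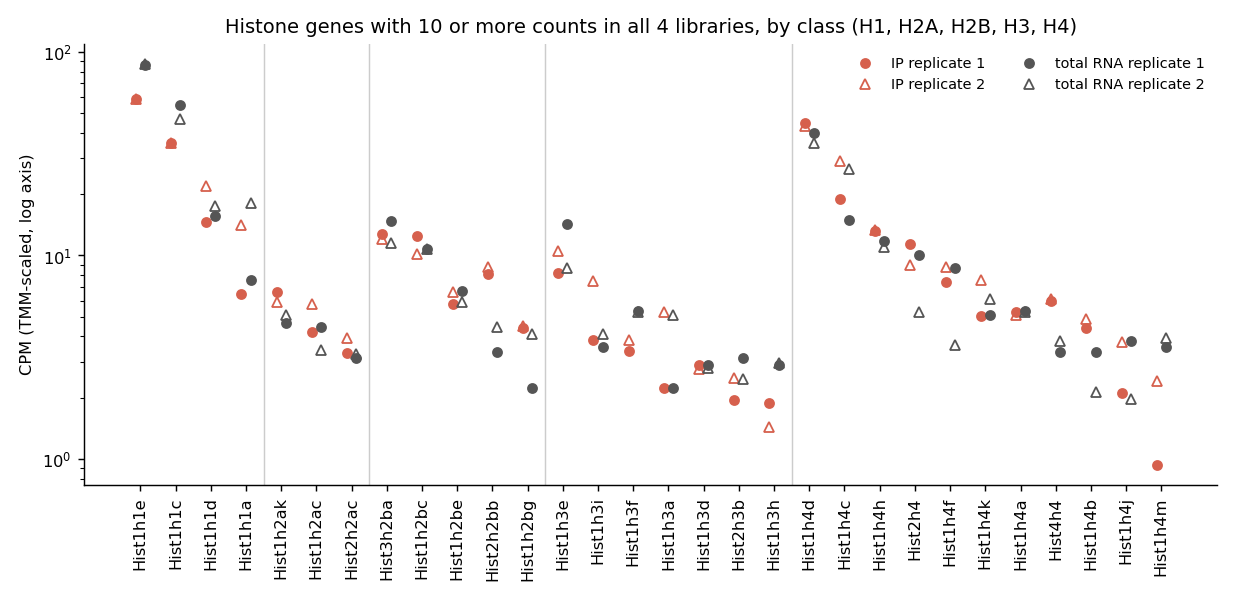
TMM-scaled CPM on a log axis for the 30 members with 10 or more counts in all 4 libraries, grouped by class, with circles for replicate 1, triangles for replicate 2, red for the IP and grey for total RNA. Hist1h1e and Hist1h1c have both IP points under both total RNA points, and Hist2h2bb has both above.

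H2B pairs with H2A in the nucleosome. Hist2h2bb, at chr3:96269752-96270132 on the plus strand of mm10, had the highest mean ratio of the 30 members (1.09). It had 112 and 98 counts in the IP against 15 and 27 in total RNA, which is 8.09 and 8.80 CPM against 3.34 and 4.44 CPM. Both IP libraries were above both total RNA libraries. The log2 fold change was 1.11 (SE 0.31, adjusted p = 0.00575 with the block and 1 without it, edgeR). Its annotation holds only the 381 coding bases, of which 226 overlap the lincRNA Gm42743 on the same strand and were left out of counting. Gm42743 itself had 1 and 1 counts in the IP against 0 and 0 in total RNA.

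Hist3h2ba, the most counted H2B gene, was at 12.7 and 12 CPM in the IP against 14.7 and 11.5 CPM in total RNA, with ratios of -0.20 and 0.064. Hist1h2bc had 171 and 114 counts in the IP against 48 and 66 in total RNA, with ratios of 0.21 and -0.082. Hist1h2be had 80 and 74 counts in the IP against 30 and 36 in total RNA, with ratios of -0.20 and 0.16. In these 3 genes the pairs had opposite signs. Hist1h2bg, with 61 and 50 counts in the IP against 10 and 25 in total RNA, had ratios of 0.92 and 0.12 and an adjusted p of 0.466 (edgeR with the block). The median over the 5 H2B genes was 0.062, and its sign flipped to -0.02 with library size alone and to -0.057 after the GC and length offset.

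Among H2A genes only 3 could be followed. Hist1h2ak, the most counted, had 91 and 66 counts in the IP against 21 and 31 in total RNA, with ratios of 0.47 and 0.21 and a log2 fold change of 0.35 (SE 0.32, adjusted p = 0.538, edgeR with the block). Hist1h2ac had 58 and 64 counts in the IP against 20 and 21 in total RNA, with ratios of -0.083 and 0.70. Hist2h2ac had 46 and 44 counts in the IP against 14 and 20 in total RNA, with ratios of 0.087 and 0.25. None of the 3 was called. After the GC and length offset Hist1h2ak had a log2 fold change of 0.92 (SE 0.32, adjusted p = 0.0535), just short of the threshold.

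H3 forms the nucleosome's core tetramer with H4. Hist1h3e, the most counted, had 114 and 117 counts in the IP against 64 and 53 in total RNA, and its ratios of -0.77 and 0.26 had opposite signs. Hist1h3h had 26 and 16 counts in the IP against 13 and 18 in total RNA, with ratios of -0.57 and -0.94 and an adjusted p of 0.286 (edgeR with the block). Hist1h3f had 47 and 43 counts in the IP against 24 and 32 in total RNA, with ratios of -0.62 and -0.42 and an adjusted p of 0.357. Both IP libraries were below both total RNA libraries for Hist1h3h and Hist1h3f, and neither passed the test. With 26.6% unshared stretches for Hist1h3e and 6.1% for Hist1h3h, the values of both genes are uncertain.

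Hist1h3i had 53 and 83 counts in the IP against 16 and 25 in total RNA, with ratios of 0.099 and 0.83. It was called higher only after the GC and length offset (log2 fold change 1.03, adjusted p = 0.0469, edgeR with the block). Hist2h3b had 27 and 28 counts in the IP against 14 and 15 in total RNA. With 12.4% unshared stretches for Hist1h3i and 20.3% for Hist2h3b, the values of both are uncertain too. Hist1h3d had 40 and 31 counts in the IP against 13 and 17 in total RNA, with ratios of -0.0017 and -0.0048. The H3 genes thus spread over both directions, with 2 higher and 3 lower in both pairs and a summed ratio of -0.51 in pair 1 (counting interval -0.78 to -0.24) and 0.12 in pair 2 (-0.13 to 0.37).

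Outside H1, 12 of the 26 core histone genes with enough counts were higher in both pairs and 5 lower in both, where all genes gave the 33.4% and 34.2% above. Their median was 0.16, with 0.0032 in pair 1 and 0.23 in pair 2, and fell to 0.077 with library size alone and 0.078 after the GC and length offset. Among core genes with over 1000 annotated exonic bases the median was 0.14 (8 genes), and among shorter ones it was 0.16 (18 genes). The 21 members with an annotated stem-loop had a median of 0.12 and the 9 without had 0.062. Of those 9, 5 have no annotated base after the stop codon, so this split partly follows how far the annotation reaches. The difference between H1 and the core histones was not tested as such.

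The replacement genes serve as a reference, in which H2A.Z and H3.3 are made outside S phase from polyadenylated mRNAs. H2afz, for H2A.Z, had 426 and 335 counts in the IP against 92 and 161 in total RNA, with a log2 fold change of 0.37 (SE 0.15, adjusted p = 0.0835, edgeR with the block). H3f3a, for H3.3, had 195 and 209 counts in the IP against 61 and 76 in total RNA, with a log2 fold change of 0.34 (SE 0.20, adjusted p = 0.295). Neither was called, although both IP libraries lay above both total RNA libraries for each. H2afx had 516 and 387 counts in the IP against 159 and 232 in total RNA, and H3f3b, which also encodes H3.3, had 770 and 567 in the IP against 236 and 361 in total RNA. Their log2 fold changes were -0.033 (SE 0.13) for H2afx and -0.074 (SE 0.12) for H3f3b. The H2afx transcript also matched the stem-loop pattern, so H2afx is not set apart from the members in that respect.

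Cultures differed in some members by more than IP and total RNA did. Hist1h1a was at 7.57 CPM in total RNA of replicate 1 and 18.1 CPM in replicate 2, and at 6.50 and 14.1 CPM in the IP. The log2 difference was 1.23 (counting SE 0.28) in total RNA and 1.09 (0.19) in the IP. Hist1h3a had 10 and 31 counts in total RNA and 31 and 59 in the IP, with differences of 1.12 (0.52) and 1.16 (0.32). Hist1h4c showed 0.83 (0.21) and 0.61 (0.12). These 3 genes were higher in replicate 2 in both kinds of library, and they were singled out after their values were seen. Other members went the other way, as Hist2h4 did with -0.90 (0.33) in total RNA and -0.34 (0.18) in the IP. Hist1h4f was lower in replicate 2 in total RNA, at -1.21 (0.38), but not in the IP, at 0.24 (0.20). Hist1h1e differed by 0.019 (0.097) in total RNA and 0.0048 (0.076) in the IP.

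Over the 30 members, 12 were higher in replicate 2 in both kinds of library and 5 lower in both, where 38.3% of the 10885 genes were higher in both and 37.8% lower in both. The 12 of 30 lay near the share of all genes, and the 5 of 30 below it. The summed level of the S phase and mitosis genes, given above, was also higher in replicate 2. Those of the astrocyte, microglial, endothelial and mural, fibroblast and oligodendrocyte lineage markers were lower. As given above, several genes of the S phase and mitosis list went against its sum, as did single genes of the fibroblast and oligodendrocyte lineage lists. The part of these differences in the values of Hist1h1a, Hist1h3a and Hist1h4c was not tested. With 1 culture per replicate number, the difference between cultures has no replicate check.

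**Figure D5:**
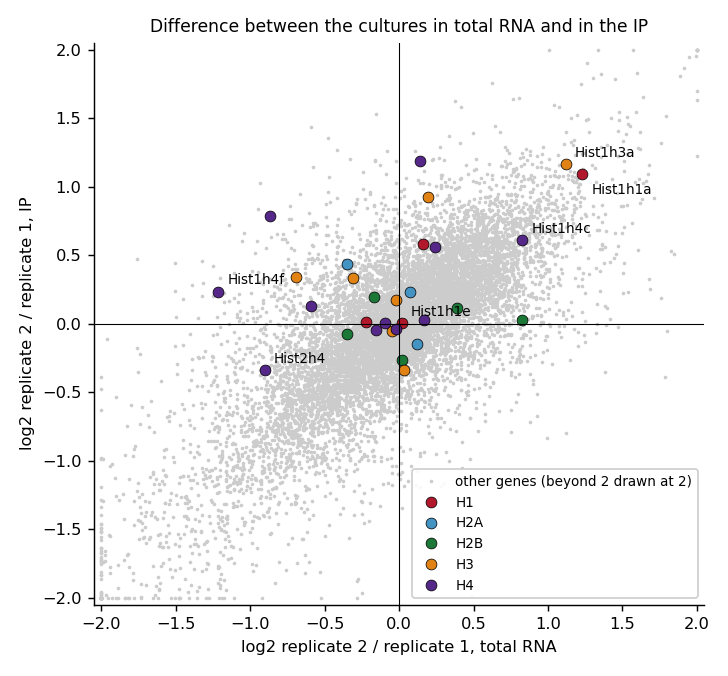
The log2 difference between replicate 2 and replicate 1 in total RNA (x axis) and in the IP (y axis) for the 30 members, coloured by class, over the other genes in grey. Hist1h1a, Hist1h3a and Hist1h4c lie in the upper right, and Hist1h1e at the origin.

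Proteins that process, translate or degrade histone mRNAs were read from a list of 23 genes, of which 22 were tested. Slbp, for the stem-loop binding protein, had 109 and 133 counts in the IP against 49 and 94 in total RNA, with a log2 fold change of -0.41 (SE 0.23, adjusted p = 0.24, edgeR with the block). With the block 2 genes were called higher and 1 lower, where the same fit called 6.63% and 7.55% of all genes, and without it edgeR and DESeq2 called 0, with 3 at an unadjusted p under 0.05 in edgeR. Lsm1, of the LSm ring that takes part in decay, had a log2 fold change of 1.15 (SE 0.39, adjusted p = 0.026). Cpsf3, for the endonuclease that cuts the histone pre-mRNA, had 0.41 (SE 0.15, adjusted p = 0.0388), with ratios of 0.75 in pair 1 and 0.15 in pair 2. Its unpaired fold change went from 0.86 without total RNA replicate 2 to 0.049 without total RNA replicate 1. Sympk, for the scaffold protein symplekin, had -0.57 (SE 0.099, adjusted p = 9.15e-07). Neither Lsm1 nor Cpsf3 was called after the GC and length offset. Sympk still was, at a smaller log2 fold change of -0.31 (SE 0.10, adjusted p = 0.0345, edgeR with the block).

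Of the 25 genes of S phase and mitosis, 18 were detected in both total RNA libraries, 11 were tested and 0 were called by edgeR or DESeq2, with or without the block, although 2 had an unadjusted p under 0.05 in edgeR with the block. Pcna, the DNA polymerase clamp, had 179 and 186 counts in the IP against 39 and 73 in total RNA. Mki67, a marker of cycling cells, had 4 and 2 counts in the IP against 2 and 0 in total RNA. Cdk1 had 5 and 0 in the IP against 1 and 0 in total RNA. Mki67 and Cdk1 were therefore near the floor in libraries where Hist1h1e had 386 and 530 counts. These genes were named after their values were seen, and in bulk RNA fewer cells of a type and less RNA per cell cannot be told apart.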

How the data were processed

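Primary cortical neuron cultures gave 2 RPS2 IP and 2 total RNA libraries. Per the file headers, the deposited values are whole-number read counts per gene, which the authors made with featureCounts 1.5.3 in stranded mode on the mm10 Cell Ranger annotation (3.0.0), without options for multi-mapped or ambiguous reads. Reads had been aligned end to end with STAR, with up to 10 loci kept. Removal of PCR duplicates is not stated. The other deposited value, exonic length in bases, was used per kilobase.

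Genes were matched to GENCODE M21 by Ensembl identifier (31011 of 31053). The members and lists were chosen with earlier results of these data known. Counts were filtered by filterByExpr, scaled by TMM and tested in edgeR 4.0.16 (R 4.3.3) by the two-sided quasi-likelihood test, unpaired, with Benjamini-Hochberg adjustment over 12336 genes and a threshold of 0.05. Ratios are differences of log2 CPM with a prior count of 2. Each total RNA library was taken before the IP from its own sample, so replicate numbers pair the libraries. Same-numbered deviations from group means correlated at 0.733, and a replicate block served as alternative, as did DESeq2 1.42.0. Simulated data with known changes served to test the scripts. Counts in each library are given for the members with 10 or more in all 4. Full values go to the 5 highest and 5 lowest ratios, called members, the most counted of each class, the 4 replacement genes, list genes called with the block, and Slbp. Other genes were named after their values were seen. Zcchc6 and Zcchc11 were matched by older symbols. Uniqueness and GC content came from M21 transcripts, since no genome was used here.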

Additional observations from a re-analysis of the deposited data

How the results depend on the processing

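In the unpaired fit 0 members were called in either direction, and leaving out each library in turn left both counts at 0. Counts of members called higher and lower came to 1 and 2 with the replicate block, and to the same numbers with library size only, with no filter on low counts or without Gm42418, each with the block. They were 1 and 3 with the block where 10 or more counts in all 4 libraries were required, 3 and 2 with the block and the GC and length offset, and 0 and 1 under DESeq2 with the block, where 36 of 39 members got no adjusted p. The genes tested that were called with the block numbered 818 higher and 931 lower, against 283 and 878 with library size only, 473 and 383 with the offset, and 158 and 382 under DESeq2. Members detected in total RNA were 47, from 52 to 53 with either total RNA library left out, and 30 where at least 10 counts were required in both. Members with 10 or more counts in all 4 libraries were 30, from 30 to 37 without each library, 18 at 20 counts and 24 with libraries thinned to 3179914 counts. The median ratio of 0.089 was 0.0079 with library size only, which shifted the median of all genes to -0.082. It reversed to -0.011 after the GC and length offset, and was -0.017 in pair 1 alone and 0.19 in pair 2 alone. With the block, the offset turned the fold changes of 7 of the 30 members, Hist1h4d (to -0.14), Hist1h4c (-0.12), Hist1h2bc (-0.36), Hist1h1d (-0.028), Hist1h4j (-0.21), Hist1h4a (0.027) and Hist2h3b (0.089), and that of H2afx (0.033). On leaving out a library they ran from -0.099 to 1.16 for Hist1h4f, -0.25 to 0.105 for Hist3h2ba, -0.61 to 0.104 for Hist1h3e, -0.16 to 0.018 for H3f3b and -0.084 to 0.023 for H2afx, each with a reversal. The cause of these changes was not tested. For the 22 genes given with full values, the other 344 fold changes under alternatives kept their direction. Counting standard errors of the ratios ran from 0.084 to 0.54 over the 30 members.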
